A study of Sus scrofa with 6 samples.

Results

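Pig midbrain-like organoids (pMLOs) were compared as whole organoids between day 11 (D11) and day 28 (D28) of differentiation. The UMIs (unique molecular identifiers, each standing for 1 captured RNA molecule) of every cell barcode with 200 to 7000 detected genes were added up within a library, so that 1 library gave 1 value per gene. The comparison used 4 of the 6 libraries of the series, D11 A and B and D28 A and B, with 64863 of 103835 cells and all 30477 genes of the deposited tables. The other 2 libraries, of day 45, entered the fit for the estimate of the spread only. All organoids came from 1 porcine embryonic stem cell line from IVF embryos, named IVF_1_ pESC_FIW. By the study's methods they received SB431542, Noggin, SHH-C24II and CHIR99021 first, then FGF8, and then B27 medium with FGF8, BDNF and ascorbic acid, which was their medium on D11. Between the samplings the organoids were embedded in Matrigel and moved to an orbital shaker in medium with BDNF, GDNF, ascorbic acid, db-cAMP and DAPT, an inhibitor of Notch cleavage, and without FGF8, so that age, Matrigel and medium cannot be told apart in any difference between D28 and D11. Replicates A and B are called biological duplicates in the study, and the labels do not say that they came from separate cultures. The p-values therefore measure the spread between these libraries, which may be technical.

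The ventral midbrain forms around the floor plate, a strip of cells that secretes Sonic hedgehog and, in the midbrain, gives rise to dopamine neurons. Neural progenitors first divide, then produce neurons and later glia, and this order is accompanied by a switch from fetal timing genes of the LIN28 and HMGA families to nuclear factor I genes. Young neurons then acquire transmitter enzymes, vesicle proteins, ion channels and receptors. In sums over all cells, fewer cells of a type and less RNA per cell cannot be told apart.

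Depth ranged from 106896390 to 180207680 UMIs per library. Median UMIs per cell were 10720 and 8766 in D11 A and B, and 5492 and 8084 in D28 A and B. Mitochondrial transcripts took 1.20% to 1.49% of UMIs, and any pair of the 4 libraries shared 54 to 92 barcodes, at most 0.642% of the smaller library. The D28 libraries differed from each other far more than the D11 libraries did. On the log2(CPM + 1) scale (CPM, counts scaled to a library total of 1000000 UMIs), the SD over genes of the difference between replicates was 0.16 on D11 and 0.53 on D28, beside 0.70 for the difference between the day means. The replicate figures compare single libraries and the day figure means of 2 libraries, so replicate error weighs less in the latter. On that scale, with 1 CPM added to each value, no gene tested differed 4-fold or more between D11 A and B, and 107 genes did between D28 A and B. D28 B held more oligodendrocyte and GABA neuron RNA, with MBP, a myelin protein, at 25.4 CPM against 1.33 CPM in D28 A, and GAD2, a GABA synthesis enzyme, at 45.7 against 3.67 CPM. D28 A held more connective tissue RNA, with the matrix proteoglycans LUM at 232 against 11.9 CPM and DCN at 229 against 24.0 CPM. List counts are therefore followed by the counts without single libraries, most fully for the lists described with values. Leaving out a library left its day with 1 sample, which the fit assumes to vary like the other groups. Without D11 A or B the spread thus came from D28 and D45, and without D28 A or B from D11 and D45. Counts without a library therefore also reflect which days set the spread.

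Over all genes, the quasi-likelihood test of edgeR, adjusted by Benjamini-Hochberg, called 5165 of the 21518 genes tested between the days at an adjusted p under 0.05. Of these, 2943 were higher on D28 (13.7% of genes tested) and 2222 were lower (10.3%). At least a 2-fold difference was seen in 2508 of the higher and 1523 of the lower genes. A difference of at least 16-fold was seen in 281 higher and 30 lower genes. The median log2 fold change of all genes was 0.06, so a list median near that value lies at the background. The libraries of the days did not overlap in 9372 genes with a rise and 4330 with a fall, called or not. Absence of overlap was thus common among all genes and adds little to a call. The number of calls moved with the libraries in the fit, which also set the spread. The plot of fold change against level shows the spread of these calls.

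**Figure D1:**
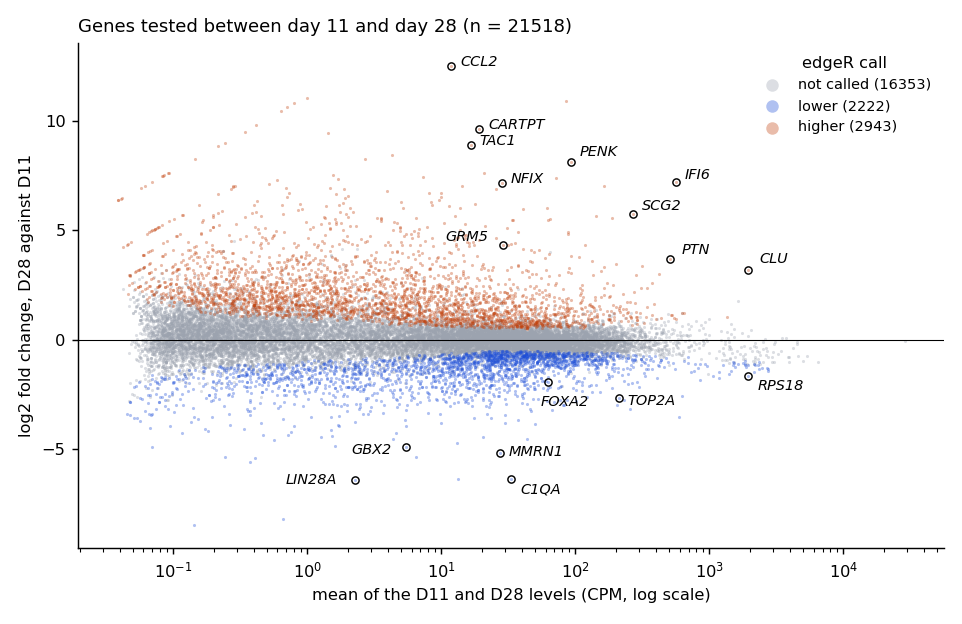
Log2 fold change between D28 and D11 (vertical axis) against the mean level of each gene in CPM (horizontal axis, log scale), 1 point for each of the 21518 genes tested. Coloured points passed the threshold, 2943 higher and 2222 lower on D28, and most of the changes of 16-fold or more were rises.

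Genes of cell division fell together. Of 26 mitosis genes tested, 25 fell and none rose, with a list median of -2.23 on the log2 scale. TOP2A (ENSSSCG00000017473, chromosome 12, 22001300 to 22028452 of Sscrofa11.1), the topoisomerase that untangles DNA before cells divide, was at 378 and 335 CPM in D11 A and B and at 65.3 and 64.7 CPM in D28 A and B. The groups did not overlap, and the level fell 6.35-fold (log2 -2.67, SE 0.205, edgeR adjusted p = 8.5e-04). CENPF, a kinetochore protein, was at 390 and 324 CPM on D11 and at 49.5 and 54.9 CPM on D28, a 7.95-fold fall (SE 0.204, edgeR adjusted p = 6.6e-04). UBE2C, which helps destroy cyclins at the end of mitosis, did not pass (log2 -1.53, edgeR adjusted p = 0.0724), since D28 A and B were far apart at 76.4 and 26.8 CPM. Of 28 DNA replication genes, 24 fell with a list median of -1.39. MCM2, a subunit of the replicative helicase, went from 36.5 and 34.4 CPM on D11 to 9.93 and 13.6 CPM on D28 (log2 -1.82, SE 0.171, edgeR adjusted p = 0.00123). PCNA (log2 -0.77), FEN1, RFC2 and RFC3 did not pass. Without D11 A, 14 mitosis (not CDK1) and 12 replication genes fell, and without D11 B 14 and 14. Summed over all mitosis genes the level was 2843, 2594, 837 and 663 CPM in D11 A, D11 B, D28 A and D28 B.

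The promoters of the mitosis genes that fell often held the letters known from periodic genes. The cell cycle homology region (CHR, letters TTTGAA) and the CCAAT box, bound by NF-Y, were searched on both strands of the 300 bases from 250 before to 50 after the RefSeq start on Sscrofa11.1. The CHR letters were in 12 of 25 promoters of the fallen mitosis genes (48.0%) and in 14.0% of all 19506 promoters. CCAAT was in 19 of 25 (76.0%) beside 35.4% of all, and both were in 8 of 25 (32.0%) beside 5.54%. The promoter of UBE2C, the 1 mitosis gene that did not pass, held both as well. The E2F letters TTTCCCGC or TTTGGCGC were in 7 of 24 fallen replication genes (29.2%), among them MCM3, TYMS and ORC1, beside 2.36% of all promoters and 0 of the 4 replication genes that did not pass. These are descriptions of letters and not of binding. The 200 bases before the start of TOP2A and of CDK1, the kinase that starts mitosis, are shown because both held both motifs. Capitals mark the matches on either strand, so that a CCAAT box on the other strand reads ATTGG, with 5 matches in TOP2A and 2 in CDK1.
TOP2A (chr12:22001100-22001299, plus strand): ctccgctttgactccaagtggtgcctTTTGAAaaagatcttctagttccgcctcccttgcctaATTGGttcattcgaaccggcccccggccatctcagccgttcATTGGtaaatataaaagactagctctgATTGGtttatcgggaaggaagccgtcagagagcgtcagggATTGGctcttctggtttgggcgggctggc
CDK1 (chr14:64233745-64233944, plus strand): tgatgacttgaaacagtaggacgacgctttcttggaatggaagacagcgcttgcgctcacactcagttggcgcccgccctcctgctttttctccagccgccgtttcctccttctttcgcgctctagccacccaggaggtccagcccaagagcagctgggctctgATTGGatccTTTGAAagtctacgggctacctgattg

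In sums over all cells, most genes of the fetal timing list fell and most of the late timing list rose. Which cells carried these changes was not tested. Of 12 fetal growth and timing genes tested, 9 fell and none rose, with a median of -2.15. The RNA-binding protein LIN28A was at 4.63 and 4.27 CPM on D11 and at 0.0655 and 0.0555 CPM on D28, an 84.8-fold fall (log2 -6.41, SE 0.357, edgeR adjusted p = 5.4e-04). HMGA1, a chromatin protein of fetal cells, was at 397 and 398 CPM against 62.2 and 74.4 CPM (log2 -2.77, SE 0.177, edgeR adjusted p = 6.5e-04). PRTG, a receptor of the early neural tube, fell 8.95-fold and LIN28B from at least 125 CPM to at most 32.8 CPM, while CRABP1, IGF2BP2 and DNMT3B did not pass. Of 9 late timing genes, 6 rose and none fell, with a median of 1.71. NFIX (ENSSSCG00000013742, chromosome 2, 65954808 to 66056591), a nuclear factor I gene of late progenitors and glia, was at 0.379 and 0.327 CPM on D11 and at 75.9 and 36.8 CPM on D28, a 142-fold rise (log2 7.15, SE 0.532, edgeR adjusted p = 7.8e-04). NFIB rose 4.27-fold, NFIA 1.98-fold and BCL11A 5.77-fold. ZBTB20, SOX6 and POU3F3 did not pass. Every library of one day lay outside the range of the other day for each gene given with values here. Without D11 A or without D11 B, 6 fetal genes fell and 4 late genes rose, and NFIA was lost (0.170 and 0.176).

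**Figure D2:**
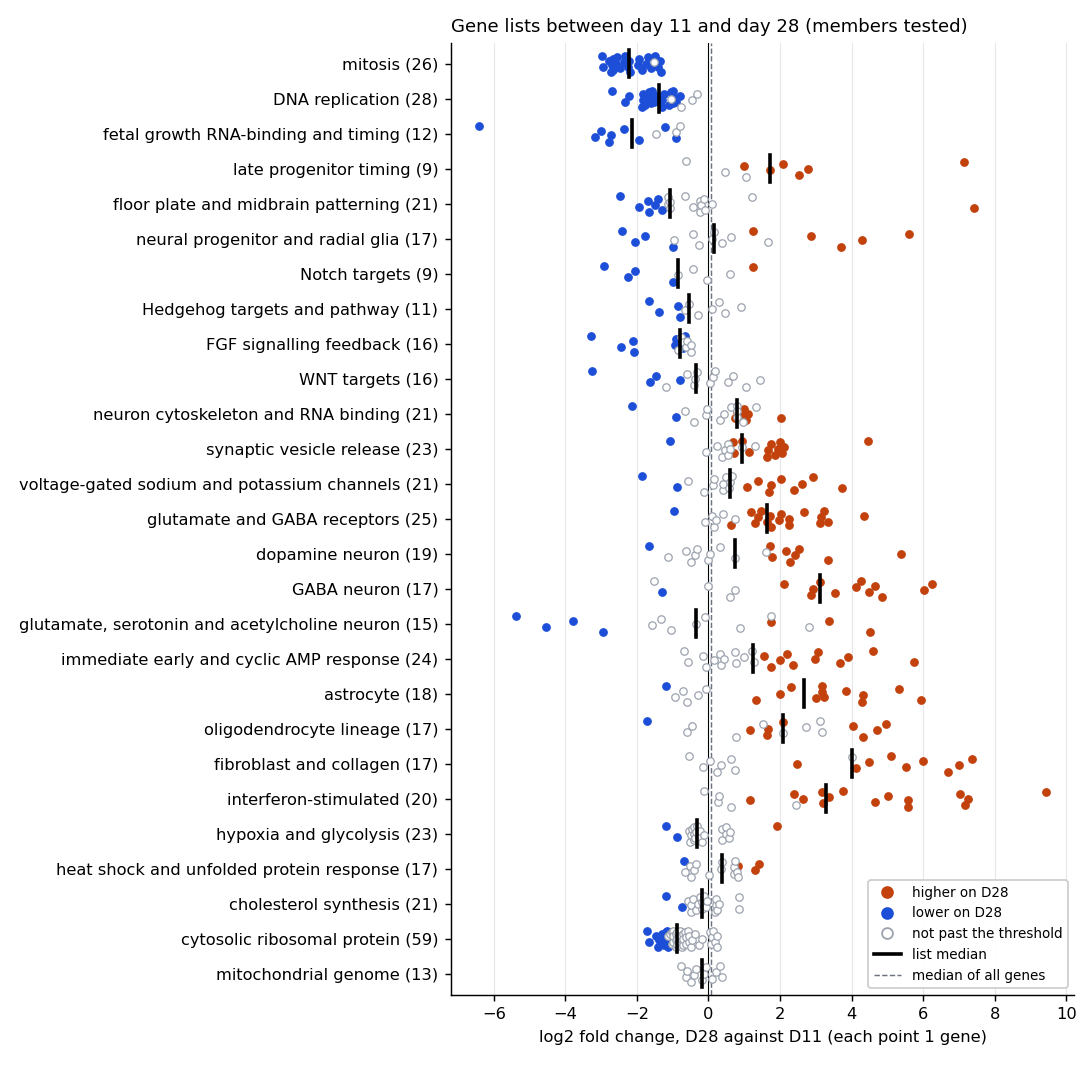
Log2 fold change between D28 and D11 of the tested members of each gene list (1 point a gene, number tested in parentheses), with the list median as a black bar and the median of all genes, 0.06, as a dashed line. Mitosis genes lie to the left, with 25 of 26 lower, and interferon-stimulated genes to the right, with 15 of 20 higher.

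Of 17 progenitor genes tested, 5 rose and 4 fell, and the median was 0.15, with 0.37 without D11 A, -0.07 without D11 B and -0.06 without D28 B. NES, an intermediate filament of neural stem cells, was at 577 and 635 CPM on D11 and at 154 and 268 CPM on D28 (log2 -1.77, SE 0.271, edgeR adjusted p = 0.00567), and PROM1 fell 4.13-fold. SLC1A3, a glutamate transporter of radial glia and astrocytes, rose from 11.8 and 7.68 CPM to 83.7 and 78.8 CPM (log2 2.86, SE 0.248, edgeR adjusted p = 0.00106). The dorsal factors PAX3 and PAX7 and the zinc finger factor ZIC1 rose too, by 3.71, 4.29 and 5.62 on the log2 scale. PAX3 lost its call in 5 and PAX7 in 7 of 18 alternatives. VIM was at 6616 and 6077 CPM against 3703 and 3784 CPM and did not pass (log2 -0.97, edgeR adjusted p = 0.0733). Without D11 A or D11 B, PAX3 (0.0570 and 0.116) and PAX7 (0.155 and 0.102) were lost by adjusted p, and 2 genes rose and 3 fell, and without D45 A or D45 B 3 rose and 4 fell.

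Of 21 floor plate and midbrain patterning genes tested, 7 fell and 1 rose, with a median of -1.09. FOXA2 (ENSSSCG00000007114, chromosome 17, 29997397 to 30001704), the factor that specifies the floor plate, was at 90.0 and 101 CPM on D11 and at 24.4 and 34.4 CPM on D28, a 3.84-fold fall (log2 -1.94, SE 0.170, edgeR adjusted p = 0.00109). SHH, the secreted floor plate signal, was at 39.5 and 39.6 CPM against 3.70 and 13.8 CPM (log2 -2.47, SE 0.522, edgeR adjusted p = 0.0174). The SHH call was lost without D11 A or without D11 B, with edgeR adjusted p values of 0.0688 and 0.0699. NKX6-1, a ventral factor, fell 3.23-fold, OTX2, which sets forebrain and midbrain identity, 3.14-fold, and the secreted axon guide SLIT2 2.66-fold. LMX1A, the factor of the dopamine lineage, was at 88.5, 98.2, 114 and 70.2 CPM in D11 A, D11 B, D28 A and D28 B, so the days overlapped (log2 -0.20, SE 0.385, edgeR adjusted p = 0.740). EN1, a midbrain and anterior hindbrain factor, also overlapped at 35.8, 52.3, 54.0 and 31.1 CPM. CORIN, a floor plate protease, was lower in both D28 libraries without passing (log2 -1.09, edgeR adjusted p = 0.0505), and passed in 11 of 19 alternatives, the lowest adjusted p being 0.00915 with DESeq2. BARHL1, a factor of subthalamic and other glutamatergic lineages, was the member that rose, from 0.0505 and 0.0999 CPM to 22.0 and 6.86 CPM (log2 7.41, SE 0.957, edgeR adjusted p = 0.00320). With the mean over cells the list's median was -0.61. The counts without D11 A or without D11 B were 3 lower and 1 higher, and SLIT2 was lost with adjusted p values of 0.103 and 0.0885 and OTX2 without D11 A with 0.0558.

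Genes of the signals used for patterning were mostly lower or not past the threshold. Of 16 FGF signalling genes, 9 fell and none rose, with a median of -0.80, FGF8 being in the medium on D11 and not on D28. The list holds feedback genes such as the SPRY and DUSP members, and also ETS factors, ligands and receptors. DUSP6, a phosphatase of ERK, was at 79.1 and 86.8 CPM on D11 and at 8.27 and 11.9 CPM on D28, a 9.69-fold fall (SE 0.179, edgeR adjusted p = 5.4e-04). The ETS factors ETV5 and ETV4 fell 5.47-fold and 4.29-fold. Of 11 Hedgehog genes 4 fell, with a median of -0.55, among them GLI1, the direct target, by 1.66 on the log2 scale (edgeR adjusted p = 0.0333) and SMO, the signal transducer, by 1.37. PTCH1, another direct target, overlapped between the days at 106 and 81.8 against 99.2 and 75.0 CPM (log2 -0.29, edgeR adjusted p = 0.462). Of 16 WNT genes 4 fell, with a median of -0.35. CCND1, the G1 cyclin, fell 2.80-fold, and AXIN2, the common readout of the pathway, was at 24.4 and 23.3 against 30.8 and 31.8 CPM without passing (log2 0.18). Without D11 A or without D11 B, 4 FGF genes fell under either, no Hedgehog gene and 1 Hedgehog gene fell, and 1 WNT gene fell under either. With the mean over cells, 1 Hedgehog gene fell and the median was 0.02, beside 0.18 for all genes there. The GLI1 call was lost under either (0.136 and 0.143) and that of SMO without D11 A (0.0544). Without D28 B, 15 FGF, 5 Hedgehog and 6 WNT genes fell, 1 Hedgehog gene and 4 WNT genes rose, and the Hedgehog median was -0.29. The WNT median was 0.00 without D11 A, -0.53 without D11 B and 0.05 with the mean over cells.

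Of 9 Notch targets 4 fell and 1 rose, with a median of -0.86, in medium that held DAPT on D28 and not on D11. HES5, a repressor that holds progenitors back from differentiation, was at 44.4 and 37.5 CPM on D11 and at 6.26 and 14.4 CPM on D28 (log2 -2.25, SE 0.304, edgeR adjusted p = 0.00368). HEY1 fell 4.16-fold and HEYL 7.64-fold. DTX1 rose 2.37-fold, and HES1 was not past the threshold (log2 -0.42). The RBPJ letters TGGGAA were in the promoters of 3 of the 4 fallen targets (75.0%), HES5, HEY1 and HEYL, in 1 of the 4 that did not pass and in 27.8% of all promoters. The GLI letters TGGGTGG were in 0 of 4 fallen Hedgehog genes, beside 8.41% of all. Of 14 proneural genes and Notch ligands, JAG1, DLL4 and NEUROD4 fell, NEUROD2 and NEUROD6 rose, and the median was -0.49. These counts are to be read beside the 13.7% higher and 10.3% lower of all genes. JAG1 went from 51.9 and 46.0 CPM to 10.7 and 16.7 CPM. NEUROD6 rested on 1 UMI on D11 against 48 on D28, a ratio of 69.7 with a 95% counting interval of 11.9 to 2811. Without D11 A or without D11 B, 3 Notch targets fell and none rose, and the calls of DTX1, NEUROD2, NEUROD4, NEUROD6 and DLL4 were lost (adjusted p of 0.0534 to 0.207). DLL4 lost its call in 8 of 18 alternatives, among them also the one without D28 A. Of the proneural genes and ligands none rose and 1 fell without D11 A or D11 B, 4 rose and 3 fell without D28 A, and 2 rose and 7 fell without D28 B. Their median was -0.20 without D28 A, -1.19 without D28 B and -0.06 with the mean over cells, and that of the Notch targets was -0.51 with the mean over cells.

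**Figure D3:**
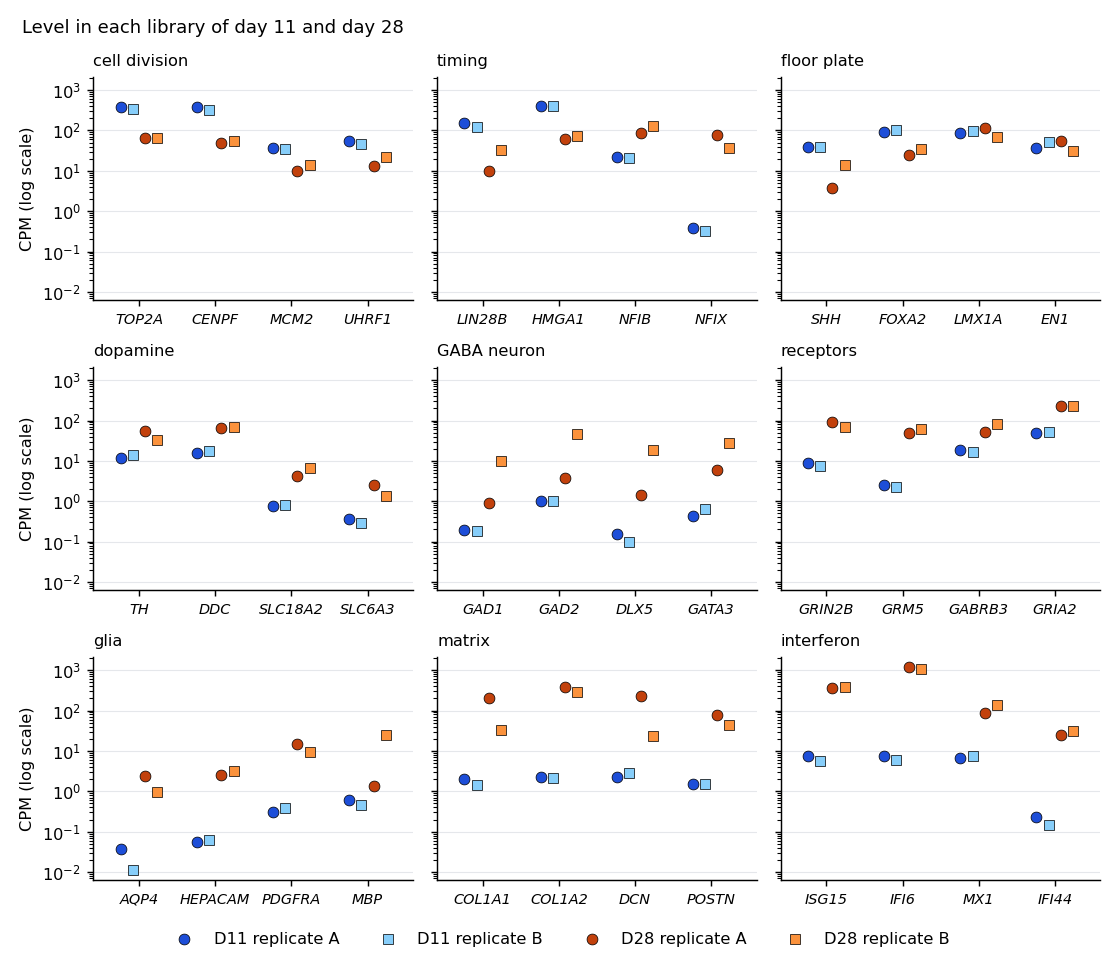
Level of named genes in each of the 4 libraries (CPM, log scale, 1 marker a library). TOP2A, at 378 and 335 CPM on D11 and 65.3 and 64.7 CPM on D28, and IFI6, at 7.52 and 5.98 CPM on D11 and 1174 and 1072 CPM on D28, show replicates close together, while GAD2 and MBP show D28 A and B far apart.

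Genes of synapses and of the neuronal cytoskeleton rose in part. Of 23 vesicle release genes tested, 13 rose and 1 fell, with a median of 0.95. SNAP25, a fusion protein of the presynaptic membrane, was at 44.4 and 42.0 CPM on D11 and at 216 and 159 CPM on D28 (log2 1.93, SE 0.258, edgeR adjusted p = 0.00360). SYP, a vesicle membrane protein, rose 3.34-fold and SNCB 21.8-fold, and PCLO, a scaffold of the active zone, fell 2.13-fold. Of 21 neuron cytoskeleton and RNA-binding genes, 7 rose and 2 fell, with a median of 0.79. MAPT, the microtubule protein tau, rose from 51.6 and 62.4 CPM to 303 and 234 CPM (log2 2.04, SE 0.268, edgeR adjusted p = 0.00336). NEFL, the light neurofilament, fell from 445 and 498 CPM to 114 and 136 CPM (log2 -2.14, SE 0.202, edgeR adjusted p = 0.00124). STMN2 did not pass at 558 and 686 against 1700 and 1045 CPM (log2 0.96, edgeR adjusted p = 0.0943), and TUBB3, MAP2 and DCX did not pass either. Without D11 A, 6 vesicle genes and no cytoskeleton gene rose, and without D11 B 6 and 1. PCLO was lost under either (0.0807 and 0.0654) and MAPT without D11 A (0.0501). With D28 A left out 11 cytoskeleton genes rose and 4 fell, with D28 B left out 9 rose and 3 fell, beside 18 and 16 vesicle genes that rose and 1 and 2 that fell. Without D45 A or D45 B, or with only the 4 libraries, 4 cytoskeleton genes rose. The cytoskeleton median was 0.48 without D28 B and 1.19 with the mean over cells, where the vesicle median was 1.56.

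Receptors for glutamate and GABA rose widely. Of 25 tested, 18 rose and 1 fell, with a median of 1.63. GRM5 (ENSSSCG00000029865, chromosome 9, 21914422 to 22438200), a metabotropic glutamate receptor, was at 2.46 and 2.23 CPM on D11 and at 48.7 and 62.5 CPM on D28, a 20.2-fold rise (log2 4.34, SE 0.293, edgeR adjusted p = 6.6e-04). The NMDA receptor subunit GRIN2B rose from 8.68 and 7.37 CPM to 90.5 and 70.4 CPM (log2 3.13, SE 0.265, edgeR adjusted p = 0.00101). GRIA2, an AMPA receptor subunit, rose 3.89-fold, and GRIK1, a kainate receptor subunit, fell 1.96-fold. GRIA3, GRIA4, GABRA2, GABRB2 and GABBR1 were among the 6 that did not pass. GRIK1 lost its call in 6 of 19 alternatives. Of 21 voltage-gated sodium and potassium channel genes, including channel partners, 9 rose and 2 fell, with a median of 0.59. KCNJ3, an inward rectifier subunit, was at 1.03 and 1.26 CPM against 17.6 and 17.6 CPM (log2 3.73, SE 0.250, edgeR adjusted p = 6.6e-04). SCN2A, an axonal sodium channel, rose 4.08-fold and KCNC2, a channel of fast-spiking neurons, 5.19-fold, and KCND3 fell 3.67-fold. Without D11 A, 12 receptors and 6 channels rose, and without D11 B 10 and 4, and GRIK1 was lost under either (0.135 and 0.144). Without D28 A 13 channels rose with a median of 1.08, and with the mean over cells 14 rose with a median of 0.95.

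Dopamine neuron genes rose in part, and the label of all samples, midbrain dopaminergic neurons, was checked against them. Of 19 tested, 8 rose and 1, OTX2, fell, with a median of 0.74. TH (ENSSSCG00000039767, chromosome 2, 1499628 to 1506180), the rate-limiting enzyme of dopamine synthesis, was at 11.5 and 14.0 CPM on D11 and at 55.1 and 32.5 CPM on D28. The days did not overlap, which also held for most genes tested, and the difference did not pass (log2 1.60, SE 0.489, edgeR adjusted p = 0.0551). It passed in 7 of 19 alternatives, at adjusted p values from 0.00359 without D28 B to 0.0447 without D45 A or D45 B. DDC, the next enzyme, was at 16.1 and 17.8 CPM against 64.2 and 70.7 CPM (log2 1.77, SE 0.452, edgeR adjusted p = 0.0316). SLC18A2, the vesicular monoamine transporter, rose from 0.777 and 0.805 CPM to 4.28 and 6.56 CPM (log2 2.53, SE 0.342, edgeR adjusted p = 0.00367). SLC6A3, the dopamine transporter, rose from 0.354 and 0.294 CPM to 2.55 and 1.34 CPM (log2 2.41, SE 0.643, edgeR adjusted p = 0.0362). The DDC and SLC6A3 calls were lost without D11 A (0.177 and 0.173) and without D11 B (0.129 and 0.179).

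KCNJ6, the potassium channel GIRK2 of substantia nigra neurons, rose from 13.6 and 11.5 CPM to 69.5 and 72.7 CPM (log2 2.29, SE 0.168, edgeR adjusted p = 7.7e-04). NTRK2, the receptor of BDNF, which was in the medium on both days, rose 10.1-fold, from 55.0 and 45.4 CPM to 615 and 552 CPM. The summed dopamine list was 764, 707, 1260 and 1275 CPM in D11 A, D11 B, D28 A and D28 B. NTRK2 alone made up 615 and 552 CPM of the D28 sums, so the rise of the sums rested on this gene. ALDH1A1, an enzyme of ventral tier dopamine neurons, was at 12.1 and 5.17 CPM on D28 and below 1 CPM on D11, and its call was lost without D11 A or D11 B (0.0723 and 0.0680). NR4A2, the factor that maintains dopamine neurons, overlapped between the days at 75.8, 85.6, 79.2 and 50.1 CPM (log2 -0.50, edgeR adjusted p = 0.292). PITX3, which marks mature midbrain dopamine neurons, was at 0.0821 to 0.299 CPM in the 4 libraries and did not pass. Of the dopamine list, 3 rose without D11 A or D11 B, 8 rose and 5 fell without D28 A, and 9 rose and 2 fell without D28 B. The median of the dopamine list was 0.35 without D11 A, 1.28 without D11 B, 0.13 without D28 A (0.03 for all genes there) and 1.21 without D28 B.

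Of 17 GABA neuron genes tested, 12 rose and 1 fell, with a median of 3.13, and most of the rise was in D28 B. GAD2 (ENSSSCG00000011060, chromosome 10, 49316682 to 49391013) was at 1.00 and 1.03 CPM on D11 and at 3.67 and 45.7 CPM on D28 (log2 4.26, SE 0.983, edgeR adjusted p = 0.0229). DLX5, a factor of forebrain GABA neurons, was at 0.152 and 0.0999 against 1.43 and 19.1 CPM (log2 6.02, SE 1.13, edgeR adjusted p = 0.0116). GATA3, a factor of midbrain and hindbrain GABA neurons, was at 0.423 and 0.633 against 5.87 and 27.0 CPM (log2 4.65, SE 0.717, edgeR adjusted p = 0.00587). Both D28 libraries lay above both D11 libraries for these genes. The list's summed level was 214, 243, 199 and 307 CPM in D11 A, D11 B, D28 A and D28 B. Without D11 A or D11 B, 2 and 3 genes rose, and without D28 A and D28 B 16 and 12 rose, 1 and 3 fell, and the median was 3.91 and 1.71. With only the 4 libraries, or without D45 A or D45 B, 8 rose, and with the mean over cells 5 rose with a median of 1.40. The GAD2 call was lost in 6 of 19 alternatives, among them those without D45 A (0.0562) and without D45 B (0.0556). The calls of GAD2 (0.131 and 0.115) and DLX5 (0.0719 and 0.0771) were lost without D11 A and D11 B and that of GATA3 without D11 A (0.0523).

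Genes of other transmitters changed in both directions, 3 higher and 4 lower of 15 tested, with a median of -0.36. These counts, too, are to be read beside the 13.7% higher and 10.3% lower of all genes. SLC17A6, the vesicular glutamate transporter of midbrain and thalamus, rose from 5.02 and 6.51 CPM to 66.0 and 72.4 CPM (log2 3.36, SE 0.218, edgeR adjusted p = 6.5e-04). SLC5A7, the choline transporter of cholinergic neurons, fell from 81.1 and 85.7 CPM to 1.59 and 7.30 CPM (log2 -4.53, SE 0.589, edgeR adjusted p = 0.00327). ISL1, a motor neuron factor, fell 7.68-fold. PHOX2A, a factor of cranial motor and autonomic neurons, went from 161 UMIs to 3, a ratio of 36.9 with a 95% counting interval of 12.4 to 181. SLC17A8 and the serotonin neuron factor FEV rose, while TPH2, SLC6A4, CHAT and SLC18A3 did not pass. FEV lost its call in 7 of 17 alternatives. The calls of ISL1, SLC17A8 and FEV were lost without D11 A or D11 B (adjusted p of 0.0799 to 0.193), and that of FEV also without D28 B (0.0780). The counts were 1 higher and 3 lower without either D11 library, 6 and 5 without D28 A, and 3 and 8 without D28 B. The median was 0.14 without D28 A and -1.10 without D28 B, and 0.01 with the mean over cells.

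Genes induced by activity or cyclic AMP rose in 11 of 24 and fell in none, with a median of 1.24, in medium that held db-cAMP, a cyclic AMP analogue, on D28. SCG2 (ENSSSCG00000023032, chromosome 15, 125420773 to 125426303), a granin of secretory vesicles, was at 6.66 and 10.2 CPM on D11 and at 492 and 567 CPM on D28, a 53.5-fold rise (log2 5.74, SE 0.326, edgeR adjusted p = 5.4e-04). VGF, a neuropeptide precursor, rose from 8.46 and 10.4 CPM to 50.2 and 49.6 CPM, and NPAS4, a factor induced by neuronal activity, 24.0-fold. FOS went from 17.4 and 19.3 CPM to 255 and 83.1 CPM (log2 3.06, SE 0.561, edgeR adjusted p = 0.0106) and EGR1 rose 14.9-fold. BDNF, also an additive as a protein, rose 5.11-fold as RNA. ARC, NR4A1, NR4A3, CREM and SIK1 did not pass. The cyclic AMP response letters TGACG were in 4 of 11 promoters of the genes that rose (36.4%), in 4 of 12 of those that did not pass (33.3%) and in 24.3% of all. Of the list, 4 rose without D11 A or D11 B, 12 rose and 1 fell without D28 A, and 15 rose and 2 fell without D28 B. The calls of FOS (0.0791 and 0.0656) and EGR1 (0.0767 and 0.0710) were lost, and that of BDNF without D11 A (0.0561).

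Astrocyte genes rose in 12 of 18, and 1 fell, with a median of 2.66. CLU (ENSSSCG00000009668, chromosome 14, 11336585 to 11352569), the secreted chaperone clusterin, was at 293 and 408 CPM on D11 and at 4278 and 2853 CPM on D28, the largest gain in CPM among called genes with a symbol (log2 3.16, SE 0.397, edgeR adjusted p = 0.00293). The study names CLU for its dopaminergic neuron cluster on D28, so CLU is no independent choice. GFAP, the astrocyte filament, rose from 0.562 and 0.671 CPM to 8.51 and 4.01 CPM (log2 3.17, SE 0.452, edgeR adjusted p = 0.00445). HEPACAM, an astrocyte adhesion protein, rose 40.5-fold to 2.47 and 3.22 CPM, and AQP4, the water channel, 60.8-fold to 2.41 and 0.936 CPM. SLC4A4 fell 2.29-fold, and GJA1, ALDH1L1, GLUL and ALDOC, also astrocyte genes, were lower without passing. The summed list was 680, 791, 5269 and 3500 CPM in D11 A, D11 B, D28 A and D28 B, and CLU alone made up 4278 and 2853 CPM of the D28 sums. The list had 8 higher members without D11 A or D11 B, and SLC4A4 was lost without D11 A (edgeR adjusted p = 0.0540). Without D28 B, 4 members fell. The median was 1.68 without D28 A and 1.60 with the mean over cells.

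Of 17 oligodendrocyte lineage genes, 8 rose and 1, CSPG4, fell, with a median of 2.08. PDGFRA, a receptor of oligodendrocyte progenitors and of connective tissue cells, rose from 0.303 and 0.377 CPM to 15.1 and 9.29 CPM (log2 4.97, SE 0.400, edgeR adjusted p = 9.2e-04). MBP was at 0.594 and 0.466 CPM on D11 and at 1.33 and 25.4 CPM on D28 (log2 4.32, SE 1.13, edgeR adjusted p = 0.0335). GPR17, a receptor of maturing oligodendrocyte progenitors, was at 0.385 and 0.477 against 0.814 and 17.1 CPM. Both were above D11 in each D28 library, and D28 B carried nearly all of the difference. OLIG1 (log2 3.12, edgeR adjusted p = 0.0602) and OLIG2 did not pass. GPR17 lost its call in 8 of 18 alternatives. Without D11 A 1 and without D11 B 3 genes rose, without D28 A 14 rose with a median of 2.22, and without D28 B 7 rose with a median of 0.41. The median was 1.27 with the mean over cells. With only the 4 libraries of D11 and D28, without D45 A, without D45 B or with cell means, 3 rose. The MBP call was lost in 7 of 19 alternatives, among them those without D11 A or D11 B (0.158 under either), without D45 A (0.0757) and without D45 B (0.0751). Lost without D11 A or D11 B were also the calls of GPR17 (0.198 and 0.161) and CSPG4 (0.0542 and 0.0833).

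**Figure D4:**
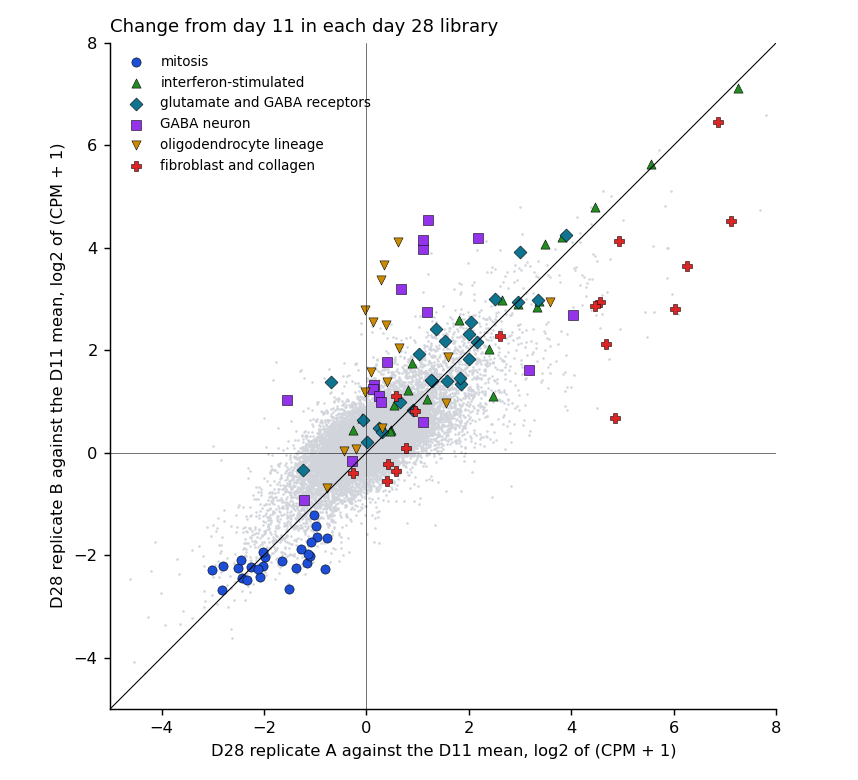
Change from the D11 mean in D28 A (horizontal axis) and D28 B (vertical axis), as differences of log2(CPM + 1), 1 point a gene, coloured by list, with all other tested genes in grey. Interferon-stimulated genes lie near the diagonal, most oligodendrocyte and GABA neuron genes above it and most fibroblast genes below it.

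Fibroblast and collagen genes rose in 9 of 17 and fell in none, with a median of 4.01. COL1A2 (ENSSSCG00000015326, chromosome 9, 74174484 to 74210407), a chain of type I collagen, was at 2.31 and 2.16 CPM on D11 and at 376 and 281 CPM on D28, a 128-fold rise (log2 7.01, SE 0.596, edgeR adjusted p = 0.00102). POSTN, a matrix protein, rose from 1.52 and 1.56 CPM to 76.3 and 43.6 CPM (log2 5.11, SE 0.493, edgeR adjusted p = 0.00133). COL1A1 was at 2.04 and 1.44 against 209 and 33.0 CPM, and COL3A1 at 0.392 and 1.16 against 246 and 40.0 CPM. All D28 values lay above all D11 values, with D28 A several times above D28 B for COL1A1, COL3A1 and DCN. LUM did not pass (log2 4.01, edgeR adjusted p = 0.0583), and COL5A1, COL5A2, FBLN1, PDGFRB, FN1, THY1 and FOXD1 did not pass either. Matrigel, a basement membrane extract, was added between the days, and its part in these RNA levels was not tested. Without D11 A 3 rose and without D11 B 5, and the median was 2.12 without D28 A, 4.72 without D28 B and 2.51 with the mean over cells. The calls of COL1A1 (0.0709 and 0.0750) and DCN (0.127 and 0.107) were lost without D11 A and D11 B, and that of COL3A1 without D11 A (0.0618).

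Interferon-stimulated genes rose in both D28 libraries alike. Of 20 tested, 15 rose and none fell, with a median of 3.28, and 14 to 17 rose when any 1 library of D11 or D28 was left out. With the mean over cells 15 rose with a median of 1.88. IFI6 (ENSSSCG00000034570, chromosome 6, 84852782 to 84858072), a small membrane protein induced by type I interferon, was at 7.52 and 5.98 CPM on D11 and at 1174 and 1072 CPM on D28, a 145-fold rise (log2 7.18, SE 0.389, edgeR adjusted p = 5.4e-04). ISG15, a ubiquitin-like modifier, rose from 7.57 and 5.76 CPM to 357 and 377 CPM (log2 5.57, SE 0.502, edgeR adjusted p = 0.00116). MX1, a GTPase that blocks viruses, rose 13.4-fold to 89.4 and 135 CPM. RSAD2, an antiviral enzyme, had 2 UMIs on D11 and 276 on D28, a ratio of 201 with a 95% counting interval of 55.0 to 1664. CXCL10, a chemokine, had 1 and 635 UMIs, a ratio of 923 with an interval of 165 to 36500. IFIT5, OAS2, OASL, IFIH1 and HERC5 did not pass. The summed list was 127, 126, 1928 and 1957 CPM in D11 A, D11 B, D28 A and D28 B, 15.4-fold higher on D28. IFI6 alone made up 1174 and 1072 CPM of the D28 sums, and the median fold of the list was 9.72.

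The letters of the interferon-stimulated response element, a pair of GAAA with any 2 bases between them on either strand, a search added after the values were known, were in 9 of 15 promoters of the genes that rose (60.0%) and in 3.56% of all 19506 promoters. All 4 promoters found for the members that did not pass held them too, so the letters did not separate the members by call. The 200 bases before the start of ISG15, IFI6 and RSAD2 are shown because the D28 libraries lay close together for these genes. Capitals mark the element, which begins with TTTC where it lies on the other strand, with 3 matches in ISG15, some of them overlapping, and 1 in each of the others.
ISG15 (chr6:63363001-63363200, plus strand): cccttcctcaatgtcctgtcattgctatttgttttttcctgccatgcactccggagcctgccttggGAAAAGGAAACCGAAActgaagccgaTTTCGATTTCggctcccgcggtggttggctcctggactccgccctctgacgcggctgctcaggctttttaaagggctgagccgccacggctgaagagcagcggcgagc
IFI6 (chr6:84858073-84858272, minus strand): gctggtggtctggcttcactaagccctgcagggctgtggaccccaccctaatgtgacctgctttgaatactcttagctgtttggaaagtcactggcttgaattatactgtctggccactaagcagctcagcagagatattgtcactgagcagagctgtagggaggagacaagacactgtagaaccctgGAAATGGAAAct
RSAD2 (chr3:128897810-128898009, minus strand): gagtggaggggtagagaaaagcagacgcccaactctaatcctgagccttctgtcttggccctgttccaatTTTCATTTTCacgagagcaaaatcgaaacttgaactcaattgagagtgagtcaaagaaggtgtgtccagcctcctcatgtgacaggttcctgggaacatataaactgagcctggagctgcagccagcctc

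Some ribosomal protein genes fell, and their number moved with the libraries in the fit. Of 59 tested, 18 fell, 41 did not pass and none rose, with a median of -0.89. RPS18, of the small subunit, was at 2790 and 2903 CPM on D11 and at 989 and 1131 CPM on D28 (log2 -1.65, SE 0.269, edgeR adjusted p = 0.00708), and RPL5, of the large subunit, fell 2.03-fold. Summed, the genes took 135350, 146024, 105144 and 76535 CPM in D11 A, D11 B, D28 A and D28 B. Without D11 A 1 and without D11 B 0 fell, RPS18 (0.0652 and 0.0736) and RPL5 (0.215 and 0.264) not among them, without D28 A 50 fell, and without D28 B 29 fell and 2 rose. With only the 4 libraries of D11 and D28, 7 fell, and without D45 A or D45 B 5 and 7, and RPL5 lost its call in 10 of 18 alternatives. Of 13 genes of the mitochondrial genome none passed, and 3 fell without D28 A or without D28 B. Among the largest losses in CPM were also rows named RPL17-C18orf32, CD74 and FLT3LG, at levels of ribosomal protein genes. CD74 lies next to RPS14 in the RefSeq annotation, and how reads of neighbouring or near-identical genes were divided is not given in the sources used here, so these names are uncertain, and their calls were lost without D11 A or D11 B (adjusted p of 0.116 to 0.184).

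**Figure D5:**
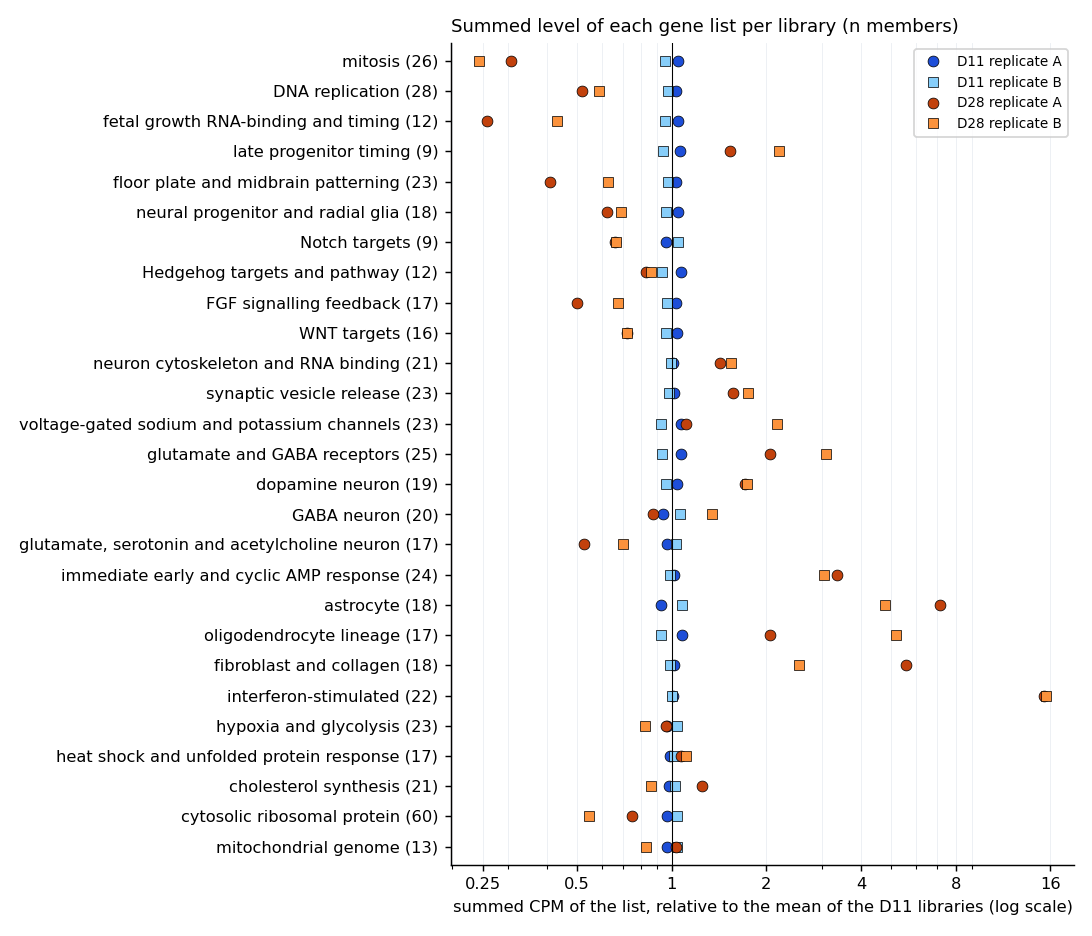
Summed CPM of each gene list in each of the 4 libraries, relative to the mean of the D11 libraries (horizontal axis, log scale), with the number of members in parentheses. Interferon-stimulated genes reach 1928 and 1957 CPM on D28 from 127 and 126 CPM on D11, and mitosis genes drop to 837 and 663 CPM from 2843 and 2594 CPM.

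Some stress and metabolic genes passed, in shares to be read beside the 13.7% higher and 10.3% lower of all genes. Of 23 hypoxia and glycolysis genes, EGLN3, an oxygen sensor, rose 3.78-fold, HK2 and ENO1, glycolytic enzymes, fell 1.85-fold and 2.26-fold, and the median was -0.31. Of 17 heat shock and unfolded protein response genes, HSPH1, DNAJB9 and XBP1 rose and BAG3 fell, with a median of 0.37. Of 21 cholesterol genes 2 fell and none rose, with a median of -0.19. Without D11 A or D11 B, EGLN3 alone of these genes passed, and HK2, ENO1, HSPH1, DNAJB9, XBP1 and BAG3 stood at adjusted p values of 0.0601 to 0.233. Without D28 A, 9 hypoxia, 3 heat shock and 11 cholesterol genes fell and 3, 5 and 0 rose, and without D28 B 6, 4 and 3 fell and 4, 7 and 4 rose. The cholesterol median was -0.57 without D28 A and 0.16 without D28 B, the hypoxia median -0.50 without D28 A, and the heat shock median 0.05 without D28 B and 0.75 with the mean over cells.

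Some markers of other cell types passed, in shares to be read beside the 13.7% higher and 10.3% lower of all genes. Of 13 endothelial and mural genes 2 rose and 2 fell (median 0.63), with CLDN5, a tight junction protein, from 0.417 and 0.455 CPM to 15.8 and 10.1 CPM. PECAM1 and CDH5, defining endothelial genes, did not pass. Of 9 microglia and blood genes, PTPRC (4.42-fold) and ITGAM rose and C1QA fell (median -0.03). C1QA, a complement subunit, was at 53.3 and 77.2 CPM on D11 and at 1.06 and 0.761 CPM on D28, while its partners C1QB and C1QC, needed for the same complex, were at 0 to 0.0111 CPM in every library. Of 6 choroid plexus genes 1 rose and 2 fell (median -0.85), of 15 ciliated 1 rose and 4 fell (median -0.22), of 11 epithelial, endoderm and muscle genes GATA6 rose and KRT8 fell (median 0.52), and of 4 pluripotent genes LIN28A fell (median -0.18). The calls of ITGAM (0.129 and 0.127) and GATA6 (0.0868 and 0.124) were lost without D11 A and D11 B. These small counts moved with single libraries too, the endothelial genes that rose being 1 without D11 A or B, 4 without D28 A and 5 without D28 B, and the epithelial, endoderm and muscle genes 0, 1 and 4. Of the ciliated genes 1 fell without D11 A or B and 3 rose without D28 B, and of the choroid plexus genes none rose without D11 A or B and 3 rose without D28 B. The medians rested on single libraries as well. Without D28 A the median was -0.03 for the endothelial and -0.66 for the epithelial, endoderm and muscle genes, and without D28 B it was 0.12 for the choroid plexus, 0.26 for the microglia and blood, -0.47 for the ciliated and -0.66 for the pluripotent genes.

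Some position genes of other brain regions passed. Of 16 forebrain and diencephalon genes, SIX6 and LHX9 rose and RAX, DBX1 and WNT8B fell, with a median of -0.09, to be read beside the 13.7% higher and 10.3% lower of all genes. LHX9, a factor of diencephalon and pretectum, went from 0.202 and 0.239 CPM to 5.15 and 20.3 CPM (log2 5.55, SE 0.766, edgeR adjusted p = 0.00398). WNT8B lost its call in 8 of 19 alternatives. Without D28 A, 5 forebrain genes rose and 3 fell, and without D28 B 3 rose and 9 fell with a median of -1.61. The calls of DBX1 (0.104 and 0.0763) and WNT8B (0.208 and 0.0928) were lost without D11 A and D11 B, and that of RAX without D11 A (0.0563). Of 12 hindbrain and spinal genes only 4 could be tested, and of these EGR2 rose and GBX2, which sets the border of midbrain and hindbrain, fell from 8.86 and 12.1 CPM to 0.290 and 0.539 CPM (log2 -4.91, SE 0.397, edgeR adjusted p = 9.2e-04). EGR2 is also a member of the activity and cyclic AMP list and is counted among the genes that rose there. The EGR2 call was lost without D11 A and D11 B (0.0751 and 0.102), and without D28 A 3 of the 4 fell.

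The largest changes among genes with a mean of at least 10 CPM on the higher day, and no overlap between the days, included neuropeptides. CARTPT, a peptide of feeding and reward circuits, rose from 0.0316 and 0.0555 CPM to 60.9 and 15.7 CPM (log2 9.60, SE 0.978, edgeR adjusted p = 0.00155). TAC1, the precursor of substance P, rose 477-fold, and PENK, the enkephalin precursor, was at 0.303 and 0.899 against 327 and 41.9 CPM. PENK, like LUM and DCN, was among the genes furthest above D28 B in D28 A (log2 ratio of B to A -2.93). Which cells held PENK RNA was not tested. CCL2, a chemokine, had 1 UMI on D11 and 5116 on D28, a ratio of 7434 with a 95% counting interval of 1334 to 293667, and D28 A was at 43.4 CPM against 3.81 CPM in D28 B. Beside C1QA, the largest falls were in MMRN1, a glycoprotein of endothelium and platelets (59.3 and 46.8 CPM to 1.34 and 2.16 CPM), GBX2, GREB1, SLC5A7 and FGF19, a secreted FGF (36.0 and 41.2 CPM to 1.05 and 3.28 CPM). PTN, a growth factor of glia and progenitors, gained much in CPM, from 73.7 and 58.6 to 1133 and 789 CPM, as did RTN1, LRP1B and APP, of which the last 2 lost their calls without D11 A or D11 B (0.115 to 0.236).

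PDE3A, a phosphodiesterase that the study names for its cells and that is thus no independent choice, was at 5.03 and 5.43 CPM on D11 and at 200 and 143 CPM on D28 (log2 4.84, SE 0.333, edgeR adjusted p = 6.6e-04). The days did not overlap. PLXDC2, also named there, was at 559 and 524 against 245 and 332 CPM (log2 -1.14, edgeR adjusted p = 0.0210), and its call was lost without D11 A and D11 B (0.134 and 0.118). SEMA3A, a secreted axon guide, and RSPO2, a WNT amplifier, both named there too, did not pass at -1.09 and -1.13 on the log2 scale.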

How the data were processed

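Single cells of pMLOs were captured with a droplet kit that reads the 3′ ends of transcripts, and the authors deposited 1 matrix of UMI counts per library, raw whole numbers made with Cell Ranger 8.0.1 per the file headers on Sscrofa11.1. The submitters' processing notes also name Seurat 4.3.0. Barcodes with 200 to 7000 detected genes were kept (103835 in the 6 libraries, where the series' text states 103310 after its own filters), no doublets were removed, and the counts were summed per library. The files pair 16266 genes with names, 844 more were named from RefSeq, and 13367 unnamed genes (12.7% to 14.4% of UMIs) were tested but not described, and some named genes are not reported here. Sums of all 6 libraries were fitted with edgeR 4.0.16 (R 4.3.3, TMM scaling, filterByExpr on the 4 libraries of D11 and D28, quasi-likelihood test with Benjamini-Hochberg adjustment, threshold 0.05). CPM values are the summed counts scaled to a library total of 1000000, fold changes come from the fit, and the smallest exact permutation p for 2 libraries against 2 is 0.333. The fit was tested on simulated data. DESeq2 1.42.0 and limma 3.58.1 served alternatives. The 37 gene lists (661 distinct genes found, 622 tested, 154 higher and 143 lower) and the comparison itself were chosen with earlier results of these data known. The list meant to hold genes named by the study includes SEMA3E, which its text does not name, so no count of it is given. Named genes were list members, chosen for large or small changes or for defining a list. Also named were the 10 largest rises, falls, gains and losses among called genes with a symbol. Where fold changes were ranked, genes had at least 10 CPM on the higher day and libraries that did not overlap between the days. Absence of overlap in genes taken from that ranking was thus set by the choice. Intervals of ratios cover counting error only. Promoters were read from the RefSeq genome of the same build.
The letters A and B were checked as pairs. Deviations from the day means of libraries with the same letter correlated at -0.538 between D11 and D28. The values were 0.194 between D11 and D45 and -0.356 between D28 and D45. Each value rests on 1 difference between B and A per day, so it cannot settle whether the letters paired the libraries.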

Additional observations from a re-analysis of the deposited data

How the results depend on the processing

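No gene called in both the full set and an alternative changed sign between them, over 19 alternatives, and 133 of 317 called genes named or listed here kept their call in all of them. Since the alternatives share libraries with the full set, a change of sign among genes called in both was unlikely from the start, and its absence says little. The count of changed genes was 5165 (2943 higher, 2222 lower). It was 3308 (1871 and 1437) with only the 4 libraries of D11 and D28, where fewer libraries estimate the spread, and 3283 and 3285 without D45 A or D45 B. Leaving out 1 library gave 1096 to 10588 changed genes, 600 to 5465 higher and 496 to 5123 lower, the low values without a D11 library and the high ones without a D28 library. With the replicate letter as a block 3348 genes were called (1972 and 1376). With the D28 letters exchanged, a pairing added after seeing the data, 6405 were called (3515 and 2890). The labels do not say whether libraries with the same letter belong together. DESeq2 called 6598 and a minimum of 100 UMIs left 4214. Averaging each cell's CPM with limma in place of summing called 3240 higher and 1086 lower, 74.9% higher against 57.0%, with the median of all genes at 0.18 on the log2 scale, and the cause was not tested. Signs of genes that had not passed turned with the D28 library left out, the values being, without D28 A and without D28 B, 1.28 and -1.29 for NEUROD1, 1.61 and -0.80 for SLC6A4, 1.04 and -0.85 for GRIA4, 0.69 and -1.20 for SIM1, -0.59 and 0.42 for BAMBI, 0.85 and -2.87 for SIX3, -1.43 and 0.83 for NR4A1, -1.35 and 0.97 for FDPS and -1.01 and 0.80 for INSIG1. DUSP4, called lower, stood at 0.03 with cell means. Depth limits genes near 1 UMI: 76 called genes had under 3 UMIs on one day.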
